A study of Mus musculus with 6 samples.

Results

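Mast cells and basophils were rare in single-cell RNA sequencing of the mouse enthesis, the attachment of tendon to bone, where 248 of 98827 kept barcodes were chosen by their protease transcripts. A barcode was kept with at least 500 unique molecular identifiers (UMIs, each counting 1 captured transcript), at least 200 genes and at most 10% of UMIs from mitochondrial genes. Mast cells were barcodes with at least 3 UMIs of Cma1, Mcpt4 and Tpsb2 together, and basophils were barcodes with at least 3 UMIs of Mcpt8 and Prss34 together. Barcodes in which Col1a1, Col1a2 and Col3a1 reached 1% of UMIs, or with more than 2 UMIs of C1qa, C1qb and C1qc, were left out. The basophil gate alone took 235 barcodes, the mast gate alone took 7, and 6 passed both.

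The samples came from C57BL/6 wild-type controls and from constitutive Nlrp3-/- mice, aged 12 to 14 weeks, in which the supraspinatus tendon was cut from the humerus and sutured back, and entheses were taken 7 days post injury (dpi). Each genotype had 3 libraries, each made from pooled enthesis tissue of a number of animals that was not given, so p-values say nothing of the spread between animals. Those of edgeR draw on a spread shared over genes as well as on that between these libraries. Summed UMIs per library ranged from 97042713 to 134901999 and kept barcodes from 10204 to 31157. Groups followed the sample titles, since the genotype field of Nlrp3-/- replicates 2 and 3 named Nlrp4 and Nlrp5, and no basophil of any Nlrp3-/- library held an Nlrp3 UMI. Xist, expressed in female cells, was at 0 in wild-type basophils and the Y-linked Ddx3y was at 0 in Nlrp3-/- basophils, so sex and genotype cannot be told apart. The paper obtained wild-type and Nlrp3-/- mice from different suppliers, so mouse stock, with the DNA near the deleted gene, cannot be told apart from genotype either. Its part in the genotype differences below was not tested. Over the 15 pairs of libraries, kept barcodes were shared 995 times, and in 0 of these were both members.

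Mast cells and basophils are granulocytes that carry the high-affinity IgE receptor and store histamine and serine proteases in granules. Mast cells mature within tissues under Kit ligand, and those of connective tissue store chymases and tryptases bound to heparin. Basophils mature in bone marrow, circulate, store the proteases encoded by Mcpt8 and Prss34, and are a known source of the type 2 cytokines IL-4 and IL-13.

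The 5 gate genes lie in 2 clusters in the GRCm38 build (GENCODE annotation). Cma1 (14:55941451-55944675), Mcpt4 (14:56059629-56062313) and Mcpt8 (14:56082166-56085273) are on the minus strand of chromosome 14, beside Mcpt1 and Mcpt2. Prss34 (17:25298394-25300165) and Tpsb2 (17:25366305-25369098) are on the plus strand of chromosome 17. Cpa3, the carboxypeptidase of both granule types and no gate gene, is at 3:20215620-20242181 on the minus strand. The proteases of each cluster are similar in sequence, so the split of UMIs between neighbours is uncertain.

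Markers outside the gate were checked against the basophil label. Of the 235 basophils, 210 had a UMI of at least 1 of 5 markers that the gate did not use, while 61 had no Prss34 UMI. Such a UMI was also present in 11.4% of barcodes with 0 gate UMIs and in 63.5% of those with 2, so it separates barcodes near the edge of the gate little. With every cell thinned to 1000 UMIs, Cpa3 was seen in 65.2% of 233 basophils and in 0% of 3000 neutrophils. Fcer1a, the ligand-binding chain of the IgE receptor, was seen in 42.1% and 0%, and Cd200r3, an activating receptor of basophils, in 35.6% and 0%. Without thinning the shares in basophils were 80.9% for Cpa3, 67.7% for Fcer1a and 63.0% for Cd200r3, and those in neutrophils were 0.137%, 0.0290% and 0.0496%, at median depths per library of 2378.5 to 8906 UMIs in basophils and 1255.5 to 3984 in neutrophils. A count of 0 in 3000 thinned neutrophils allows a share of up to 0.1% of cells with a UMI, a limit that covers counting error only.

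At the edge of the basophil gate the barcodes were mixed. The 25 barcodes with exactly 3 gate UMIs had Cpa3 in 36% and the 74 with exactly 2, just outside, had it in 31.1%, whereas all 105 barcodes with at least 100 had it and 0.365% of 54045 barcodes with none did. Barcodes with 3 to 9 gate UMIs numbered 76 of the 235 and were large, with a median of 16321 UMIs, so they held 48.0% of the set's UMIs. In barcodes of at most 100 UMIs, taken as free RNA, the basophil-gate genes had 15.9 to 155 of every 1000000 UMIs by library, and the part of free RNA in barcodes with few gate UMIs was not tested. Scrublet, a doublet caller, placed 61 of the 235 basophils among the highest scores of their libraries, marked at 0.8% of barcodes per 1000. In wild-type replicates 1 to 3 these were 11 of 48, 23 of 36 and 10 of 54 basophils. Of kept barcodes there, 1557 of 13950, 2469 of 17569 and 833 of 10204 were marked. In Nlrp3-/- replicates 1 to 3 they were 0 of 18, 2 of 51 and 15 of 28 basophils. Of kept barcodes there, 7766 of 31157, 1181 of 12151 and 1523 of 13796 were marked.

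The mast gate had a clear edge instead. One barcode had exactly 3 UMIs, none had 4 to 9, and 12 had at least 10. Just outside it, 9 barcodes had 2 UMIs and none of them held Cpa3.

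Basophils made up well under 1% of kept barcodes in every library. In wild-type controls the 48, 36 and 54 basophils of replicates 1 to 3 were 0.344%, 0.205% and 0.529% of kept barcodes. In Nlrp3-/- mice the 18, 51 and 28 basophils were 0.0578%, 0.420% and 0.203%. The genotypes overlapped, at 0.359% ± 0.163 (SD, n = 3) in wild-type controls and 0.227% ± 0.182 (SD, n = 3) in Nlrp3-/- mice (two-sided exact permutation p = 0.4). A test of 3 libraries against 3 cannot give a p below 0.1. The difference of -0.133 percentage points was -0.0477 without wild-type replicate 3, -0.0481 without Nlrp3-/- replicate 1, and -0.229, with no overlap, without Nlrp3-/- replicate 2.

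The lowest share, in Nlrp3-/- replicate 1, depended on the collagen limit. In that library 112 barcodes with basophil-gate UMIs were over the collagen or C1q limit, against 1 to 4 in each other library, and 111 of them were over the collagen limit. They held 456 Mcpt8 and 1213 Prss34 UMIs at a median of 2336 UMIs per barcode. Of all kept barcodes in that library, 9513 of 31157 were within both limits. In wild-type replicates 1 to 3 these were 10753 of 13950, 11670 of 17569 and 7383 of 10204. In Nlrp3-/- replicates 2 and 3 they were 8582 of 12151 and 7214 of 13796. Kept barcodes of Nlrp3-/- replicate 1 had a median of 1480 UMIs, against 4183 to 7182.5 in the other libraries. Without the 2 limits the basophil-gate share in Nlrp3-/- replicate 1 was 0.417%, and the genotypes were at 0.378% ± 0.174 and 0.359% ± 0.110 (SD, n = 3 each, exact permutation p = 1). Relative to neutrophils, the other granulocyte of the injury, there were 1.05 ± 0.512 basophils per 100 in wild-type controls and 1.03 ± 0.578 in Nlrp3-/- mice (SD, n = 3 each, exact permutation p = 0.9).

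**Figure D1:**
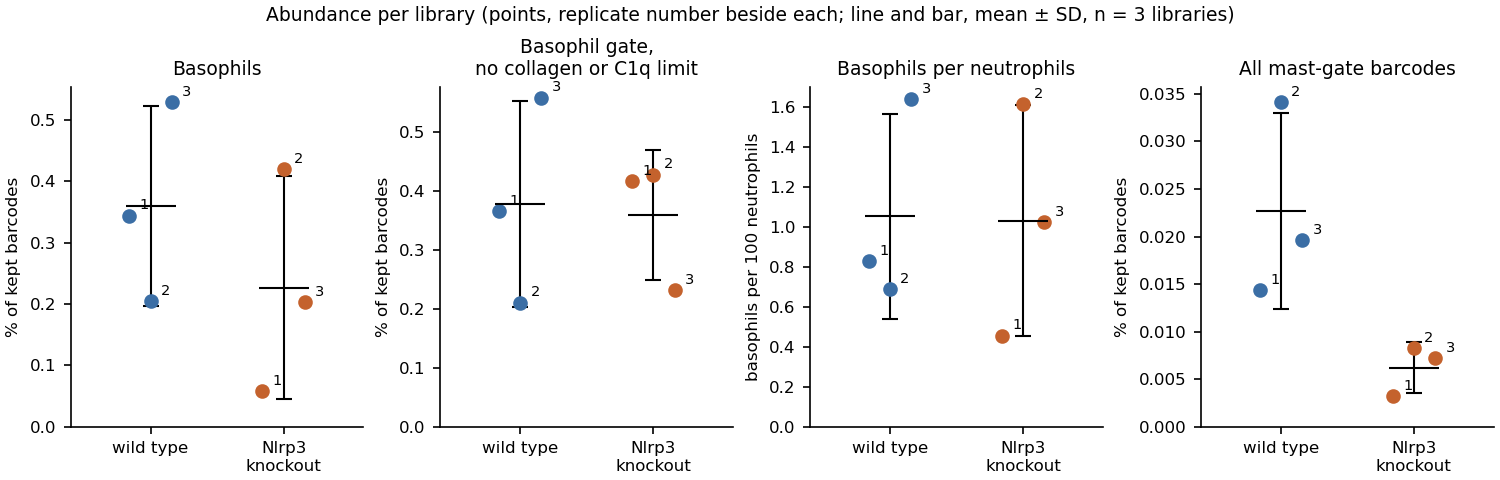
Each point is a library with its replicate number, and lines and bars give the mean and SD of 3 libraries per genotype. The panels show basophils in percent of kept barcodes (0.205% to 0.529% in wild-type controls and 0.0578% to 0.420% in Nlrp3-/- mice), basophil-gate barcodes without the collagen and C1q limits, basophils per 100 neutrophils, and all mast-gate barcodes, the only panel in which the genotypes do not overlap.

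Mast cells were scarcer still. The mast gate alone took 1, 3 and 0 barcodes in wild-type controls and 1 in each Nlrp3-/- library, or 0.00808% ± 0.00857 and 0.00623% ± 0.00266 (SD, n = 3 each, exact permutation p = 0.9). With the 6 barcodes that passed both gates, all of them from wild-type controls, the shares were 0.0227% ± 0.0103 and 0.00623% ± 0.00266. Those shares did not overlap, and p was 0.1, the smallest that the exact permutation test allows here.

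The 13 mast-gate barcodes fell into unlike profiles, which are described from the genes that chose them and from their other UMIs. In 6 barcodes, 3 of each genotype, Mcpt4 had 23 to 72 UMIs, Cma1 17 to 167 and Tpsb2 10 to 111, with at most 1 Mcpt8 and 2 Prss34 UMIs. All 6 held Cpa3 (19 to 115 UMIs) and Mcpt2, a chymase best known from mucosal mast cells (2 to 171 UMIs), in libraries of 1990 to 4738 UMIs per barcode. Mcpt1 had 77 and 258 UMIs in the wild-type barcodes of 2850 and 3731 UMIs and 0 in the others. The 6 that passed both gates had at most 3 Mcpt4 UMIs but 11 to 611 of Cma1 and 8 to 47 of Mcpt8, together with 51 to 214 of Cpa3 and 4 to 14 of Kit, in 5105 to 25201 UMIs. Mcpt2 was at 17, 133 and 20 UMIs in those of 20577, 5942 and 25201 UMIs and at 0 in those of 6619, 6133 and 5105. One of the 6, with 25201 UMIs, and the mast barcode of Nlrp3-/- replicate 3 were among the highest Scrublet scores of their libraries. Another, with 20577 UMIs, held 164 UMIs of Lyz2 and 29 of Cd74, and the macrophage and monocyte markers summed to 8324 CPM in the mast cells of its library against 447 to 3785 in the others. The part of RNA from other cells in these barcodes was not tested. The Mcpt8 or Prss34 UMIs of the 6 are what the second gate required, whereas neither gate set how the mast-gate UMIs divided between Mcpt4 and Cma1.

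One mast-gate barcode did not bear out its label. It held 3 Cma1 UMIs and no Cpa3, Mcpt4 or Tpsb2, with 66 UMIs of Ccl5 and 22 of Gzma, both cytotoxic lymphocyte genes. Of the mast receptor genes, Mrgprb1 was at 0 and Mrgprb2 had 1 UMI over all 13 barcodes. Elane had no UMI in any of them. Within basophils, 1 of 235 held any UMI of the mast-gate genes.

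**Figure D2:**
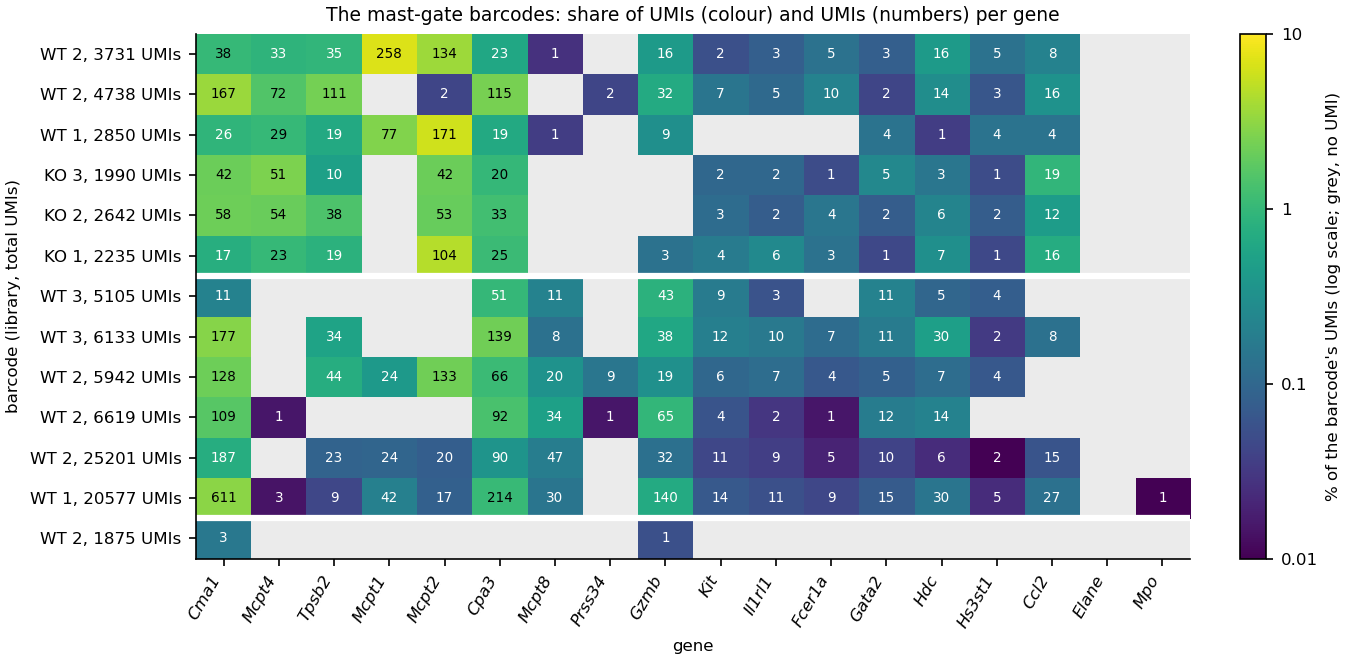
Each line is 1 of the 13 mast-gate barcodes (WT, wild type; KO, Nlrp3 knockout) and each column a gene, with UMIs as numbers and the percent of the barcode's UMIs as colour on a log scale, grey where there was none. Mcpt4 reaches 23 to 72 UMIs in the upper 6 barcodes and at most 3 in the middle 6, whose Mcpt8 counts are 8 to 47, and the lowest barcode holds 3 Cma1 UMIs.

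Of the gate genes, which chose them, the 248 barcodes held 88.1% of the Mcpt8 and 89.5% of the Prss34 UMIs of all kept barcodes, and in Nlrp3-/- replicate 1 basophils held 45.2% and 46.3%. They held 97.5% of Mcpt2 UMIs, 96.6% of Mcpt1, 78.3% of Cpa3 and 84.8% of Fcer1a. They also held 77.5% of all Il4 and 62.1% of all Il13 UMIs, which encode the type 2 cytokines that drive IgE class switching and tissue responses to helminths. For Il6, an inflammatory cytokine made by many cells, the share was 4.67%, and for Hgf, hepatocyte growth factor, 5.94%. Within single libraries basophils held 41.9% to 87.8% of Il4 UMIs, with a median of 72.0%.

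Mast cells and basophils were compared in sums of UMIs per library, with 12 mast barcodes (2, 6 and 1 in wild-type replicates 1 to 3 and 1 in each Nlrp3-/- library). Barcodes that passed both gates counted in the set with more gate UMIs, and 1 with equal numbers was left out. The plan had put barcodes of both gates in neither set, as in the shares above, where mast cells numbered 7. The 6 of wild-type replicate 2 include the barcode with lymphocyte genes. Most UMIs of the wild-type mast sums came from the profile with at most 3 Mcpt4 UMIs, and each Nlrp3-/- sum is 1 barcode of the other profile, so genotype and profile cannot be told apart within mast cells. The gate genes were not tested. The mast sums of wild-type replicate 3 and of every Nlrp3-/- library are 1 barcode each, so n = 6 libraries stands largely for single mast cells. The p-values of this comparison rest on a spread pooled over genes. They do not measure how far mast cells or animals vary, however small they are. The filter on low counts could be passed through 1 of the compared sets alone, here and below, so counts over a gene list describe the genes that passed it. Of 1218 genes tested with edgeR, 49 (4.02%) were higher in mast cells and 114 (9.36%) were higher in basophils at a Benjamini-Hochberg adjusted p below 0.05, with a median log2 difference of -0.36. With library totals in place of TMM scaling, which moved differences by 0.18, the split was 92 against 92, and with DESeq2's size factors it was 79 against 103. Leaving out wild-type replicate 1 or 2 left 99 or 95 calls and leaving out Nlrp3-/- replicate 2 gave 246, against 163.

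Receptors of mast cell growth and alarmin signals stood higher in mast cells. Kit, the receptor for stem cell factor, was at 598, 624 and 1957 CPM (counts per 1000000 UMIs of the set) in the mast cells of wild-type replicates 1 to 3 and at 1790, 1136 and 1005 in those of Nlrp3-/- mice. In basophils of the same libraries it was at 34.1, 33.9 and 65.4 and at 128, 105 and 68.4 CPM. The 2 sets did not overlap, and the log2 difference was 3.78 ± 0.41 (SE, n = 6 libraries, edgeR adjusted p = 1.06e-17). Il1rl1, the IL-33 receptor, was 3.84 ± 0.40 higher on the log2 scale (adjusted p = 4.84e-19), with 470 to 2685 CPM in mast cells and 35.5 to 78.9 in basophils. In the list of growth factor and cytokine receptors, 3 of 4 tested genes were higher in mast cells and none was lower (median 2.75 against -0.36 over all genes, of which 4.02% were higher and 9.36% lower), and the other 22 of the 26 were not tested. Genes high in mast cells could pass the filter through mast cells alone, so nothing is read from this count.

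Several granule genes outside the gate were also higher in mast cells. Cpa3 stood at 9946, 8024, 22664, 11186, 12490 and 10050 CPM in mast cells, from wild-type replicate 1 to Nlrp3-/- replicate 3, against 1288 to 2120 CPM in basophils. Its log2 difference was 2.45 ± 0.28 (SE, n = 6, edgeR adjusted p = 3.15e-16). Hdc, the histamine-forming enzyme, was higher by 1.68 ± 0.42 (adjusted p = 0.00169), at 1185 to 4892 CPM against 348 to 680, a call lost in 2 alternatives. Hs3st1, a heparan sulfate sulfotransferase, was higher by 3.14 (adjusted p = 2.46e-11). Gzmb, encoding granzyme B, was at 6360, 3430 and 6196 CPM in wild-type mast cells and at 1342, 0 and 0 in Nlrp3-/- mast cells, against 31.5 to 688 in basophils. It was higher overall by 4.20 (adjusted p = 5.93e-14) but in 4 of 6 libraries, and its log2 difference was -0.25 in the Nlrp3-/- libraries alone. Among the 6 single barcodes with high Mcpt4, Gzmb had 9 of 2850 UMIs in wild-type replicate 1. It had 32 of 4738 and 16 of 3731 in the 2 of replicate 2. In Nlrp3-/- replicates 1 to 3 it had 3 of 2235, 0 of 2642 and 0 of 1990. Of 13 mast granule proteases 4 could be tested, 2 of them higher and 1, Ctsg, lower, beside 4.02% higher and 9.36% lower over all genes. The filter could be passed through 1 set alone, so nothing is read from this count.

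The 2 sets differed in chemokines in both directions. Ccl2, which recruits monocytes, was at 1323, 811 and 1304 CPM in wild-type mast cells and 7159, 4542 and 9548 in Nlrp3-/- mast cells, against 0 to 63.9 in basophils. The 6 barcodes with high Mcpt4 are single cells of unlike depth. In them Ccl2 had 4 of 2850 UMIs in wild-type replicate 1, and 16 of 4738 and 8 of 3731 in replicate 2. In Nlrp3-/- replicates 1 to 3 it had 16 of 2235, 12 of 2642 and 19 of 1990. The log2 difference was 6.47 ± 0.45 (SE, n = 6, edgeR adjusted p = 8.73e-44). Ccl3 and Cxcl2, which draw monocytes and neutrophils, were higher in basophils. Ccl3 ranged from 597 to 1687 CPM there and from 0 to 489 in mast cells (log2 -4.10, adjusted p = 3.58e-08), and Cxcl2 from 949 to 2595 and from 0 to 603 (log2 -3.32, adjusted p = 1.08e-08). Ccl4 and Il6 were also lower in mast cells (log2 -1.79 and -1.78, adjusted p = 0.000472 and 0.0183), with overlap for both. Ccl4 was at 0, 104 and 4565 CPM in wild-type and 2685, 0 and 6533 in Nlrp3-/- mast cells, against 1549 to 4573 in basophils, and in 3 of 6 libraries it was higher in mast cells. Those 2 calls were lost in 5 and 4 alternatives, among them leaving out wild-type replicate 1 (adjusted p = 0.0977 and 0.110) or 2 (0.0738 and 0.126).

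Among the genes with the largest differences, Basp1, which encodes a membrane-bound signalling protein, was at 757 to 2446 CPM in mast cells and 7.1 to 43.6 in basophils (log2 5.51). Adk and Ptms (log2 2.48 each) and Ago2 (2.29), each lost in 2 alternatives, were also higher in mast cells. So was the immediate-early gene Fosb (2.01), lost in 1 alternative. The 10 genes with the largest differences in the other direction included several of neutrophil primary granules. Elane and Prtn3, the neutrophil granule proteases elastase and proteinase 3, had no UMI in mast cells and were at least 106-fold and 98.2-fold higher in basophils, taking 3 counts over the summed mast UMIs, or 35.5 CPM, as the floor. Of the basophil Elane UMIs 98.9% were in 42 barcodes, 32 of them with under 10 gate UMIs, and in the 105 basophils with at least 100 gate UMIs Elane was at 86.3 CPM. Ms4a3 was at least 28.6-fold, Ly6c2 8.48-fold, Sdf2l1 8.25-fold and Anxa3 7.27-fold higher by the same floor. Mpo, myeloperoxidase, had a UMI in 1 mast library (42.7 CPM) and was at 1758 to 3943 CPM in basophils (log2 -7.95). Dut, Pglyrp1 and Ctsg completed the set with log2 differences of -5.21, -4.94 and -4.39. Of 13 neutrophil and 12 hematopoietic progenitor markers, 5 and 7 could be tested, and those high in basophils could pass the filter through basophils alone, so nothing is read from how many were lower. The 12 progenitor markers summed to 1238 to 3015 CPM per library in mast cells, with Elane, Flt3 and Prtn3 at 0, and to 8104 to 23965 in basophils. The part of progenitor RNA in these differences was not tested.

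Elane and Prtn3 transcripts sat mostly in basophil barcodes with few gate UMIs, which is a description because the gate formed the bins. Elane was at 5639 CPM in the 76 barcodes with 3 to 9 gate UMIs, 1502 CPM in the 54 with 10 to 99 and 86.3 CPM in the 105 with at least 100. Prtn3 was at 5315, 2131 and 199 CPM in those bins, and Prg2, an eosinophil granule protein, at 1580, 4323 and 27.4 CPM. Basophil genes ran the other way, with Cpa3 at 328, 1230 and 3949 CPM and Fcer1a at 60.3, 235 and 1106. Il4 was at 18.2, 125 and 341 CPM across the bins, and Il6 at 69.8, 384 and 1376. Elane UMIs were present in 83 of the 235 barcodes. Elane, Mpo, Prtn3 and Ctsg together did not fall steadily over the bins. Their median share of a barcode's UMIs was 0.494% at 3 to 9 gate UMIs, 0.122% at 10 to 99 and 0.391% at 100 or more.

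**Figure D3:**
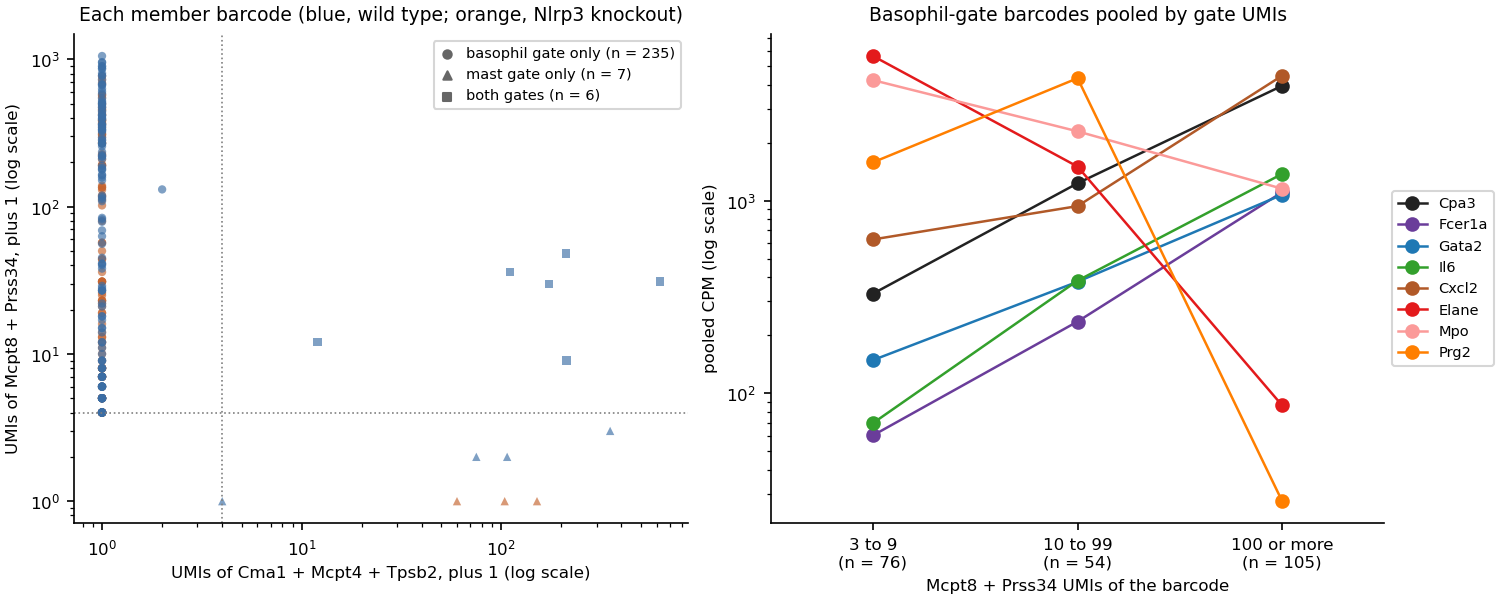
Left, UMIs plus 1 of the basophil-gate genes (vertical axis) against those of the mast-gate genes (horizontal axis), both on log scales, for each of the 248 barcodes, with dotted lines at the gates. Right, pooled CPM on a log scale of 8 genes in basophil barcodes binned by gate UMIs, in which Cpa3 is at 328, 1230 and 3949 CPM and Elane at 5639, 1502 and 86.3.

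Basophils were then set against the 24171 neutrophils of the same libraries, chosen by S100a8 and S100a9. Of 10271 genes tested, 2600 (25.3%) were higher and 3058 (29.8%) lower in basophils (median log2 -0.05). Under plain library totals, which shifted differences by 0.54, the split was 4732 against 1708. With a basophil gate that also required 0.2% of UMIs, which left 161 basophils, 3728 genes passed. The Nlrp3-/- libraries alone gave 3076.

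The IgE receptor chains differed in size and direction. Fcer1a was at 291 to 584 CPM in basophils and at 0 to 0.278 in neutrophils (log2 11.16 ± 0.30, SE, n = 6, edgeR adjusted p = 1.95e-12). Ms4a2, the receptor's beta chain, was at 249 to 620 CPM against 2.6 to 9.89 (log2 5.88 ± 0.21). The common gamma chain Fcer1g, which neutrophils use with other Fc receptors, was lower in basophils (log2 -1.33). The adaptors Lat (log2 4.12) and Lat2 (2.94) were higher and the kinases Syk (-1.95) and Lyn (-2.14) lower, and in all 5 of the 17 tested genes of IgE receptor signalling were higher and 9 lower (median -0.80), beside 25.3% higher and 29.8% lower over all genes.

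Il4 was measured in basophils of every library, at 258, 165 and 103 CPM in wild-type controls and 99.5, 74 and 59.3 in Nlrp3-/- mice. Neutrophils stood at 0 to 0.326 CPM, and the log2 difference was 9.62 ± 0.31 (SE, n = 6, edgeR adjusted p = 5.08e-12). Il13 was at 19.7 to 97.3 CPM against 0 to 0.0738 (log2 9.86 ± 0.40). Il6 was at 337 to 835 CPM against 3.58 to 28.5 (log2 5.13 ± 0.27, adjusted p = 8.89e-10). Hgf was at 66.6 to 170 CPM against 3.24 to 6.22 (log2 4.04 ± 0.19). Of 16 tested cytokines 6 were higher in basophils, among them Tgfb1 (0.58) and Areg (1.41, lost under 7 alternatives), and 8 were lower, among them Il1b (-1.86) and Tnf (-1.28). Among 12 chemokines 1 was higher, Ccl9 (2.22), and 7 were lower. Over all genes 25.3% were higher and 29.8% lower.

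**Figure D4:**
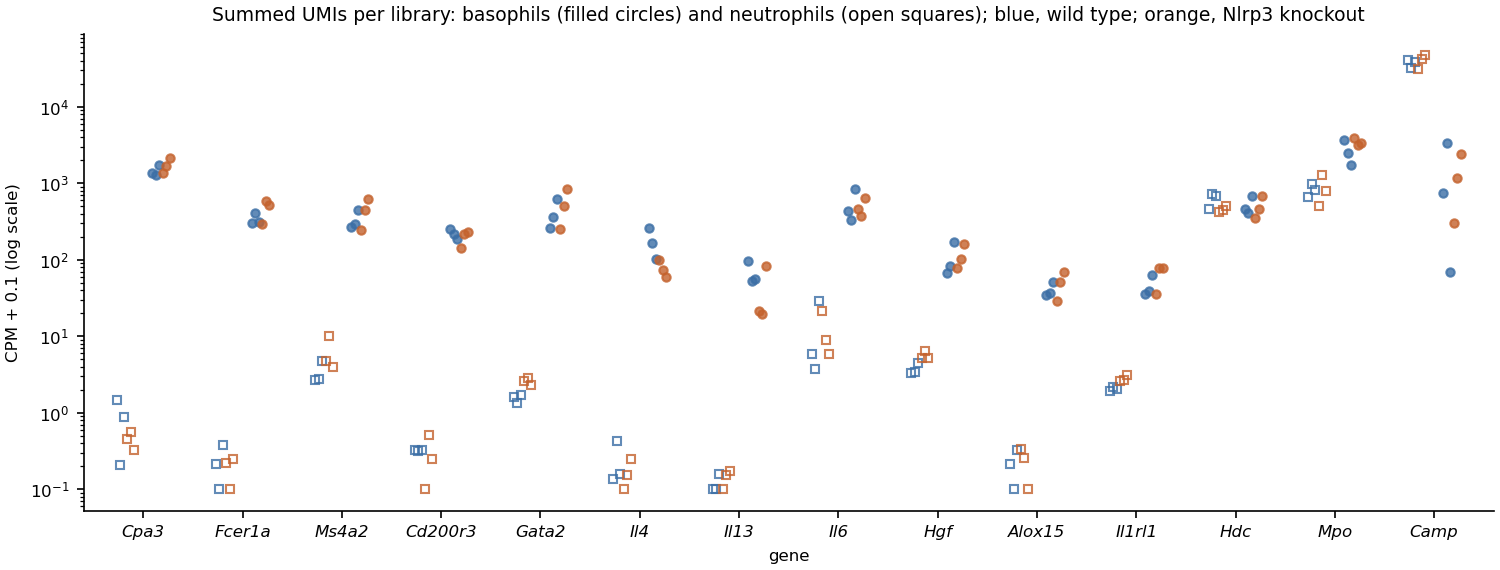
Each point is the summed UMIs of basophils (filled circles) or neutrophils (open squares) of a library, in CPM plus 0.1 on a log scale, for 14 genes, with wild-type controls in blue and Nlrp3-/- mice in orange. Fcer1a, Cpa3, Il4 and Il13 do not overlap between the cells, whereas Hdc lies at 348 to 680 CPM in basophils and 428 to 733 in neutrophils.

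Surface and enzyme genes of basophils outside those groups followed. Cd200r3 was at 142 to 249 CPM against 0 to 0.408 (log2 9.25 ± 0.21, edgeR adjusted p = 1.91e-13). Cyp11a1, a steroid-forming cytochrome, was at 135 to 365 CPM against 0 to 0.556 (log2 9.72 ± 0.29), and the lipoxygenase Alox15 was 7.89 higher. Slc18a2, which loads amines into granules, was at 133 to 333 CPM against 0.264 to 1.33 (log2 7.23), while Hdc was lower by the main gate (-0.64 ± 0.13, adjusted p = 0.000811) and 0.32 and not called with the gate of 0.2% of UMIs. The prostaglandin receptor Ptger3 (6.02), E-cadherin Cdh1 (6.44) and the integrin chains Itga2b (5.82) and Itga2 (3.38) were higher too. Receptors for IL-33 (Il1rl1, 4.06 ± 0.21) and IL-3 (Il3ra, 1.87, and Csf2rb2, 1.47) were higher, as was the STAT5 target Cish (2.97). Of 11 tested basophil markers 10 were higher and only Hdc was lower (median 3.38), beside 25.3% higher and 29.8% lower over all genes. Markers high in basophils could pass the filter through basophils alone, so nothing is read from this count.

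The 5 named genes with the largest differences in the other direction were Ankrd22 (log2 -6.73), the granule protein Olfm4 (-6.65), the formyl peptide receptor Fpr1 (-6.51), Retnlg (-6.45) and Itgb2l (-6.42). Camp (-6.08) and Lcn2 (-5.65), stored in secondary granules, were also lower, and 10 of 11 tested neutrophil markers were lower with none higher (median -5.65), beside 29.8% lower and 25.3% higher over all genes. Genes high in 1 set could pass the filter through that set alone, so nothing is read from the list counts of this paragraph. Mpo and Ctsg, of primary granules, were higher in basophils (1.33 ± 0.19 and 2.05), but Mpo was -0.16 and not called with the gate of 0.2% of UMIs. Progenitor genes Cd34 (2.30), Myb (2.04) and Kit (1.21, lost with that gate) were higher, and of 11 tested progenitor markers 8 were higher and 1 lower, beside the same shares. Their list summed to 8104 to 23965 CPM in basophils and 4021 to 8825 in neutrophils, and its part in the comparison was not tested.

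Gata2, the transcription factor that basophils and mast cells depend on, was at 256 to 839 CPM in basophils and 1.25 to 2.7 in neutrophils (log2 7.33 ± 0.22). Ikzf2 (5.93) and Cebpa (2.40) were higher and Cebpe, a factor of granulocyte maturation, was lower (-2.49), and of 30 tested transcription factors 8 were higher and 13 lower, beside 25.3% and 29.8% over all genes. For granule protease and receptor genes named above, the 120 bases before the RefSeq start sites (GRCm38.p6) of 8 are printed 5′ to 3′ on the gene's strand. Capitals mark the motif AGATAA, its variant AGATAG, the motif TGATAA or its variant TGATAG on either strand, overlaps included, which are letters that GATA factors bind. In windows of 250 bases before a start, 26.5% of 32851 windows held such a match, and by gene 7 of 12 basophil markers and 3 of 4 mast genes with a window did, against 29.7% of all 27025 gene symbols. A match describes letters and no bound site.
Cpa3 promoter, chr3:20242182-20242301, minus strand: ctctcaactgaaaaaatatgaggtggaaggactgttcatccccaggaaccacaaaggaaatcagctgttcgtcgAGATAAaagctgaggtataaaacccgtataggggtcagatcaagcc
Fcer1a promoter, chr1:173227230-173227349, minus strand: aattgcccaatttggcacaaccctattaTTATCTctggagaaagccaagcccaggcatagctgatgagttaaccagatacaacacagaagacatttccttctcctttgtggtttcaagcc
Ms4a2 promoter, chr19:11623720-11623839, minus strand: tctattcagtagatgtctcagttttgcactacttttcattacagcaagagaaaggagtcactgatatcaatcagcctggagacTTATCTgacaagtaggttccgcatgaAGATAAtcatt
Cd200r3 promoter, chr16:44943558-44943677, plus strand: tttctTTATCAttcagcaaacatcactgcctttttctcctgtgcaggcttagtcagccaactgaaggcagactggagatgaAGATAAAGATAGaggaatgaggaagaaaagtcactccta
Prss34 promoter, chr17:25298274-25298393, plus strand: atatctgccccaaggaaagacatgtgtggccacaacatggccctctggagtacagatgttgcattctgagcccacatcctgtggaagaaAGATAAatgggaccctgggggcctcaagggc
Cma1 promoter, chr14:55944676-55944795, minus strand: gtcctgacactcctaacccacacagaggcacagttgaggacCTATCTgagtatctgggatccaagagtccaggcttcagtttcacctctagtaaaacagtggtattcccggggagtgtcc
Mcpt4 promoter, chr14:56062311-56062430, minus strand: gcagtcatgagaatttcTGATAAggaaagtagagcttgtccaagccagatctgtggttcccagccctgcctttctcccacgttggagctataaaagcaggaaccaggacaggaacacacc
Mcpt8 promoter, chr14:56085198-56085317, minus strand: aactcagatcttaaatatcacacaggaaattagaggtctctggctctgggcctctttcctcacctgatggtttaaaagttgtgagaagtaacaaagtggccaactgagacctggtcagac
Cd200r3, Ms4a2 and Fcer1a, all far higher in basophils than in neutrophils, hold at least 1 match each in these bases, and so do Cpa3 and Prss34. Cma1 and Mcpt4 hold 1 each, and Mcpt8 none. Parts of the Mcpt8 and Mcpt4 stretches lie inside the genes as GENCODE places them, since the RefSeq starts differ. The choice is not representative, since the whole windows of Kit, Hs3st1, Basp1, Gata2, Itga2, Ifitm1 and Ccl9 hold no match.

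Between genotypes, few genes differed in basophils. Of 5585 genes tested, 6 (0.107%) were higher and 19 (0.34%) lower in Nlrp3-/- basophils (median log2 0.01), and under library totals, a shift of 0.13, the split was 7 against 11. Leaving out wild-type replicate 3 gave 69 calls, against 25. Without wild-type replicate 2 there were 11, and the Nlrp3-/- libraries left 11 without replicate 2 and 16 without replicate 3.

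Nlrp3, the sensor of the inflammasome and the targeted gene, was at 230, 261 and 354 CPM in wild-type basophils and had no UMI in Nlrp3-/- basophils of any library, a level at least 91.0-fold lower. Neutrophils of the same wild-type libraries stood at 227, 763 and 346 CPM, so the ranges overlapped in wild-type controls. With all 6 libraries in the fit, Nlrp3 was called lower in basophils than in neutrophils (log2 -1.04, edgeR adjusted p = 0.00473). The Nlrp3-/- libraries were at 0 in both sets, and of the wild-type libraries only replicate 2 was lower in basophils by CPM. That call was lost with the gate of 0.2% of UMIs (-0.028) and turned to 1.57 by DESeq2. Of 9 tested genes of the inflammasome panel, the deleted gene Nlrp3 alone passed, beside 0.107% higher and 0.34% lower over all genes.

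Prg2, Prg3 and Epx, genes of eosinophil granules, were lower in the summed basophil-gate barcodes of Nlrp3-/- mice. Prg2, major basic protein, was at 1290, 2065 and 4385 CPM in wild-type controls and at 0, 34.5 and 406 in Nlrp3-/- mice (log2 -4.25 ± 0.73, SE, n = 3 against 3, edgeR adjusted p = 0.00806). Prg3, its homologue, was at 140, 235 and 482 CPM against 7.1, 18.1 and 27.4 (log2 -4.05 ± 0.47, adjusted p = 0.000217). Epx, eosinophil peroxidase, was at 85.3, 191 and 222 CPM against 0, 1.64 and 54.7 (log2 -3.60 ± 0.66, adjusted p = 0.0147). None of the 3 overlapped, beside 14.8% of all genes tested without overlap and 0.34% called lower. Genes called in these same libraries seldom overlap, so nothing is read from that. The other 6 of the 9 eosinophil markers were not tested, and since a gene could pass the filter on low counts through the wild-type libraries alone, nothing is read from how many of those tested were lower. With DESeq2 1 of the 3, Prg3, was called. These UMIs came from few barcodes. The 13 barcodes with at least 10 Prg2 UMIs, 11 of them wild-type and 2 from Nlrp3-/- mice, held 99.98% of the set's Prg2 UMIs, and 1 of the 13 had at least 100 basophil-gate UMIs. Their median was 8 gate UMIs. By library 0 to 7 barcodes held a Prg2 UMI, so these values do not describe basophils in general. The summed level of the 9 eosinophil markers, none of them at 0 over the set, was 1551 to 5150 CPM in wild-type basophils and 7.1 to 538 in Nlrp3-/- basophils, and the part of eosinophil-lineage RNA in these differences was not tested. The calls of Prg2 and Epx were lost without wild-type replicate 2 (adjusted p = 0.0670 and 0.128) or Nlrp3-/- replicate 2 (0.0846 and 0.258), and with DESeq2 (0.858 and 0.998), and each was lost in 4 alternatives in all. The fourth was leaving out Scrublet barcodes for Prg2 (0.0628) and at least 5 gate UMIs for Epx (0.0982).

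**Figure D5:**
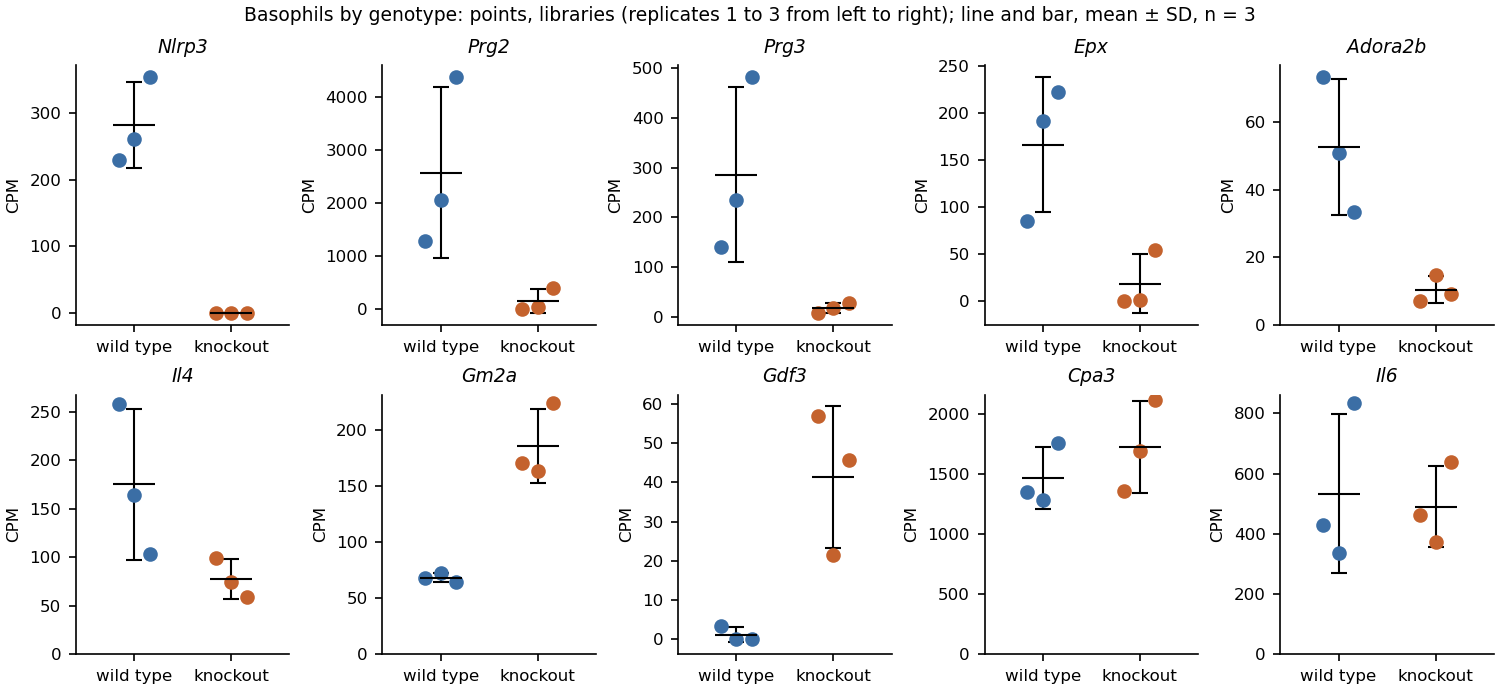
Each point is a library, with CPM of summed basophil UMIs on the vertical axis and the mean and SD of 3 libraries per genotype as line and bar, for 10 genes. Prg2, Prg3 and Epx are lower in all 3 Nlrp3-/- libraries, and Il4, at 103 to 258 against 59.3 to 99.5 CPM, does not pass the test.

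Type 2 and inflammatory mediators of basophils did not pass the test between genotypes. Il4, which lies on chromosome 11 as the deleted Nlrp3 does, did not overlap. Its log2 difference was -1.37 ± 0.35 (SE, n = 3 against 3, edgeR adjusted p = 0.166). It passed with the replicate number as a block (adjusted p = 0.0398), without a filter on low counts (0.000182) and without wild-type replicate 3 (0.00777). Il6 differed by -0.24 (adjusted p = 0.879), Fcer1a by 0.35 (0.775) and Cpa3 by 0.11 (0.922). Il6 turned to 0.16 without wild-type replicate 3, and Cpa3 to -0.098 without Nlrp3-/- replicate 3. With edgeR and with DESeq2, 0 of 12 tested cytokines, 6 chemokines, 16 genes of IgE receptor signalling, 10 basophil markers and 21 transcription factors passed (medians -0.14, -0.57, -0.03, -0.09 and 0.35). An unadjusted edgeR p below 0.05 was reached by 2, 2, 1, 1 and 1 of them, against 456 of all 5585 genes.

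Among the other calls, Adora2b, an adenosine receptor, was at 73.4, 50.8 and 33.4 CPM in wild-type controls and 7.1, 14.8 and 9.12 in Nlrp3-/- mice (log2 -2.22 ± 0.46, edgeR adjusted p = 0.0357), a call lost in 11 alternatives. Gm2a, a lysosomal lipid-binding protein, was at 68.3, 72.6 and 63.9 CPM against 171, 163 and 223 (log2 1.30 ± 0.26, adjusted p = 0.0291), and Gdf3, a growth factor of the TGF-β family, at 3.41, 0 and 0 against 56.8, 21.4 and 45.6 (log2 4.45 ± 0.83, adjusted p = 0.0171). Those 2 were lost in 7 and 5 alternatives, each of them among others without wild-type replicate 2 or Nlrp3-/- replicate 2. Insl5 was at 39.3, 55.7 and 74.5 CPM in wild-type basophils and at 0 in Nlrp3-/- basophils, at least 18.2-fold lower. Gm8797 (log2 2.48) and AC149090.1 (1.69, lost in 10 alternatives) were higher and Tpm3-rs7, named as a relative of Tpm3, was at least 39.0-fold lower. Whether these 3 share reads with other loci was not tested. Xist was at 1385, 1463 and 1281 CPM in Nlrp3-/- basophils, at least 760-fold higher, with its antisense overlap Tsix at least 21.1-fold higher, and Ddx3y was at least 15.0-fold lower.

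The 11 other lower genes included histone, mitochondrial and secreted protein genes, named after their values were seen. Hist1h2ae was at 292, 155 and 198 CPM in wild-type basophils and 78.2, 55.9 and 18.2 in Nlrp3-/- basophils (log2 -2.26 ± 0.36, SE, n = 3 against 3, edgeR adjusted p = 0.00436), a call lost in 1 alternative, without Nlrp3-/- replicate 2 (adjusted p = 0.0703). The histone genes Hist1h1d (log2 -2.57) and Hist1h2ap (-1.48) were also lower, each lost in 4 alternatives. Saa3, an acute phase protein, was at 102, 82.3 and 114 CPM against 21.3, 34.5 and 0 (log2 -2.23 ± 0.42, adjusted p = 0.0171), lost in 2 alternatives, which were library totals (0.0544) and leaving out wild-type replicate 2 (0.0847). Uqcrq, a subunit of respiratory complex III, was at 681, 797 and 470 CPM against 298, 242 and 210 (log2 -1.54 ± 0.25, adjusted p = 0.00595), lost in 3, without wild-type replicate 2 (0.0970), without Nlrp3-/- replicate 2 (0.0822) and with the gate of 0.2% of UMIs (0.0905). Plin2 (-1.54), which coats lipid droplets, Cmc2 (-1.39), Ss18l2 (-1.61), Crip1 (-1.20), the galectin Lgals1 (-1.24) and the ribosomal protein gene Rpl41 (-0.86) were lost in 6 to 12 alternatives each. None of these 11 genes overlapped between genotypes, beside 14.8% of all 5585 genes tested without overlap and 0.34% called lower. The calls in these same libraries chose the genes, so nothing is read from the lack of overlap.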

How the data were processed

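Single-cell suspensions of the enthesis were run on 10x Genomics 3′ chemistry, and the authors deposited raw matrices of UMI counts per gene and barcode, made with Cell Ranger (version 4 per the file headers, 2.1.1 with mm10 per the submitters' processing notes). No per-sample values other than these counts were used. Counts of all 32285 genes were kept, and 32158 identifiers matched the GENCODE annotation of GRCm38. The members, gene lists and comparisons were chosen with earlier results of these data known.

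Barcodes were filtered and gated as described above. Neutrophils had at least 10 UMIs and 1% of UMIs in S100a8 and S100a9. Scrublet (scanpy 1.11.5) was run per library and removed barcodes only as an alternative. UMIs of a set were summed per library and tested with edgeR 4.0.16 (quasi-likelihood, TMM, filterByExpr) in R 4.3.3, with library as a block between sets, and p-values were adjusted by Benjamini-Hochberg over all genes tested. The gate genes were removed from the tests. CPM used the summed UMIs of the set. Genes were named by rank of fold change among calls with the same direction in every library and at least 50 CPM (20 CPM between genotypes), 10 per direction between mast cells and basophils and 5 per direction otherwise, with Nlrp3, Cpa3, Xist, Ddx3y and Eif2s3y. Other genes were named from the lists after their values were seen. Shares were compared by two-sided exact permutation tests over libraries. Basophil sets held 18 to 54 barcodes per library and mast sets 1 to 6, which limits the precision of mast cell values to that of single cells in 4 libraries. In wild-type replicates 1 and 2 a single barcode also held much of the mast sum. It had 20577 UMIs beside 2850 in replicate 1, and 25201 beside 1875 to 6619 in replicate 2.

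Alternatives were DESeq2 1.42.0, other scaling, gates, depth, mitochondrial, doublet and purity limits, no filter, the replicate block and leaving out each library. In simulated counts with the mast and basophil library sizes, 88.9% of 90 genes with a 4-fold change were called among 1061 genes. The changed genes were drawn from those with higher expected counts, and genes lost to the filter were not counted. The simulated sums held no unlike mast profiles and no RNA of other cells, so this share does not measure the power of the real comparison. The replicate numbers do not pair the libraries: correlations of deviations between same-numbered libraries were -0.014, 0.020 and -0.005.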

Additional observations from a re-analysis of the deposited data

Results flagged for a closer look

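The log2 difference of Kit between basophils and neutrophils was 2.86 in Nlrp3-/- replicate 1, outside the 1.45 to 1.64 of the other 5 libraries, the only one of 49 genes tested over the critical value of Dixon's test for 6 samples, which chance passes in about 1 of 20 groups. In the same library 112 barcodes with basophil-gate UMIs lay over the collagen or C1q limit and were not counted as members, against 1 to 4 in each other library. Of all its kept barcodes, 9513 of 31157 were within both limits.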

How the results depend on the processing

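Of 2217 recomputed values of 111 results, each a named gene in 1 comparison, 2036 kept their direction and side of the threshold, 161 lost it, 4 gained it and 16 reversed. The cause of the changes was not tested, except that fewer barcodes, genes or libraries entered where a setting removes them. Mast cells against basophils, in which all libraries with 1 barcode entered, was chosen after seeing the data, since no library held 10 mast cells, as were the comparisons with library totals, with basophils that carry another marker and without the collagen and C1q limits. For the same reason genotype in mast cells, its interaction with the set and mast cells against macrophages were not run. Counting barcodes of both gates in the larger set also departed from the plan for mast cells against basophils. Leaving them out of both sets was run as an alternative. Calls between mast cells and basophils (163) numbered 102 with DESeq2, 100 with at least 5 gate UMIs, 92 with the gate of 0.2% of UMIs, 63 in Nlrp3-/- libraries alone, 789 without the filter and 95 to 246 on leaving out a library. Calls between genotypes (25) numbered 14, 13 and 101 with the 5-UMI gate, the 0.2% gate and no filter, and 11 to 69 on leaving out a library. With the replicate block they numbered 30, of which 23 were shared, and the numbers do not pair the libraries. Calls between basophils and neutrophils (5658) numbered 3728 with the 0.2% gate, 3076 in Nlrp3-/- libraries alone and 4934 to 5816 on leaving out a library. Sex-linked genes and Nlrp3 turned with scaling or tool. Xist between mast cells and basophils was 1.78 with DESeq2 and 0.080 with totals, and between basophils and neutrophils Ddx3y was 1.64 and 0.090, Eif2s3y 1.59 and 0.30, and Nlrp3 1.57 with DESeq2. Hdc was 0.32 and Mpo -0.16 there with the 0.2% gate, and Gzmb between mast cells and basophils was -0.25 in Nlrp3-/- libraries alone. Between genotypes Il6 was 0.040 with the 5-UMI gate, 0.053 with the 0.2% gate and -0.53 to 0.16 on leaving out a library, and Cpa3 was -0.070 with the purity limits, -0.036 without Scrublet barcodes and -0.098 to 0.25 on leaving out a library. Genotype differences of some shares also turned. The basophil share stayed negative on leaving out a library, at -0.229 to -0.0477, as did that of all mast-gate barcodes, at -0.0206 to -0.0107 and without overlap. That of mast cells in percent of barcodes, -0.00185, was -0.00751 with the 0.2% gate and -0.0132 with double barcodes in the larger set, both without overlap (exact permutation p = 0.1 each), 4.52e-05 with the 5-UMI gate and -0.00589 to 0.00265 on leaving out a library, and mast cells in percent of both sets, 0.300 higher, were -1.03 with the 0.2% gate, -4.71 without Scrublet barcodes, -3.16 with double barcodes in the larger set, -0.136 with another marker and -1.32 to 2.52 on leaving out a library. Basophils per 100 neutrophils, -0.0217, were 0.0847 without Scrublet barcodes and -0.313 to 0.271 on leaving out a library. The 18 to 54 basophils and 1 to 6 mast cells per library limit what depth can show.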

Other observations

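Other gene lists added to the contrast of basophils with neutrophils. Of 10 tested eicosanoid genes 1, Alox15, was higher in basophils and 5 were lower, and of 29 tested activating and inhibitory surface receptors 9 were higher and 16 lower. Of 20 tested cell cycle genes 7 were higher and 6 lower, and of 20 immediate-early genes 3 were higher and 12 lower. Of 13 tested inflammasome genes 1 was higher and 8 lower. These counts stand beside 25.3% higher and 29.8% lower over all genes tested.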
